A study of Mus musculus with 15 samples.

Results

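The tumour suppressor p53, encoded by Trp53, was followed through its own mRNA, the mRNAs of 2 proteins that restrain it (Mdm2 and Ppp1r13l) and the mRNAs of 7 further target genes (Cdkn1a, Ccng1, Bax, Zmat3, Phlda3, Trp53inp1 and Sesn2). These 10 genes were chosen by name, with earlier results of these data known, and found through their Ensembl gene identifiers. The shares of all genes printed beside their counts are therefore a description and no test of the set. All 10 had a row in both gene tables, among 13501 genes measured in the overexpression experiment and 13669 in the knockdown experiment, and 29 of their transcripts were among 30220 in the transcript table.

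The cells were of the line 6DT1, derived from a mouse mammary cancer, and were cultured as a monolayer for 15 RNA-seq libraries. EV carried an empty vector and OE a vector with the Smarcd1 coding sequence with a Myc tag at its carboxyl end, and both lines were kept in blasticidin. The lines shScr, KD4 and KD6 carried a lentiviral hairpin, scrambled in shScr and directed against Smarcd1 in KD4 and KD6, and were kept in puromycin. Each of the 5 lines gave 3 libraries from cells of separate passages, taken 24 h after plating, and no line received another treatment. Each line is a single transduced and drug-selected population, so a difference between lines includes whatever else differs between those populations. The p-values measure the spread between passages of a line.

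Smarcd1 encodes a subunit of BAF complexes, which remodel chromatin. In the gene tables its level was 61.7 to 70.4 CPM in OE against 27.1 to 31.9 CPM in EV, and 9.05 to 9.27 CPM in KD4 against 14.5 to 16.5 CPM in shScr. The KD6 libraries had 13.2 to 15.1 CPM, overlapping shScr, and did not pass (adjusted p = 0.701). Every KD4 library thus lay below shScr, while a smaller fall in KD6 was neither shown nor excluded. The study also blotted Smarcd1 protein in its Smarcd1 hairpin lines, which mRNA does not measure. CPM (the read count of a gene relative to the size of its library) is the unit of all levels. The depth is unknown, because the values held no whole-read steps and no read totals were given. Of 13 mammary epithelial markers 5 had a row (Krt8, Krt18, Krt19, Esr1 and Gata3), and Epcam, Cdh1, Krt5 and Krt14 had none.

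In unstressed cells p53 is bound by Mdm2, a ubiquitin ligase that marks it for degradation, and the amount of p53 is set mostly at the level of the protein. On DNA damage or other stress p53 accumulates, binds DNA as a tetramer and turns on genes for cell cycle arrest, repair, metabolism and cell death. Mdm2 is itself such a target, which closes a negative feedback loop. Ppp1r13l encodes iASPP, the inhibitory member of the ASPP family, which binds p53 and restrains its activity at target genes. None of these protein-level steps is measured by mRNA.

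The p53 tetramer recognizes paired copies of a 10-base consensus, and the promoters of the 10 genes were searched for a single copy of it because the genes are grouped by p53 control. The window ran from 250 bases before to 50 bases after the gene start in the RefSeq promoter sequences of mouse build GRCm38.p6. The consensus reads alike on both strands. Promoters were in the sequence table for 8 of the genes, and 5 of those 8 held a match. A match stood in 5 of the 9 promoters of these genes (55.6%), in 10 of 49 promoters (20.4%) of other p53 target genes and in 2745 of all 32851 promoters (8.36%). The matches are shown with 10 bases on either side, the consensus copy in capitals, and they describe the letters in these windows without showing that p53 binds there.
Trp53, chr11:69580274-69580303, plus strand: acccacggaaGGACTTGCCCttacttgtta
Mdm2, chr10:117710925-117710954, minus strand: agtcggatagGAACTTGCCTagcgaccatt
Cdkn1a, first match, chr17:29090896-29090925, plus strand: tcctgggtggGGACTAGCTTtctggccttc
Cdkn1a, second match, chr17:29090918-29090947, plus strand: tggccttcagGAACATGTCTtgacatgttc
Ccng1, chr11:40755452-40755481, minus strand: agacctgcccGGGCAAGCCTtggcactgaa
Bax, chr7:45467080-45467109, minus strand: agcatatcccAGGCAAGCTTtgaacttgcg
The windows of Phlda3, Sesn2 and Ppp1r13l did not hold these letters.

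Trp53 mRNA passed the test in no comparison. Its level was 110.9, 106.6 and 114.2 CPM in EV replicates 1, 2 and 3 and 111.4, 103.6 and 112.6 CPM in OE. In the knockdown table the shScr libraries had 97.0, 120.4 and 117.6 CPM, the KD4 libraries 112.1, 105.1 and 113.2 CPM and the KD6 libraries 104.6, 100.5 and 82.0 CPM. Within each experiment the lines overlapped except that each KD6 library lay below each KD4 library, and across the tables each KD6 library also lay below each EV library. The difference in log2(CPM + 1) was -0.02 for OE against EV (95% confidence interval -0.13 to 0.10), -0.01 for KD4 against shScr (-0.25 to 0.22) and -0.22 for KD6 against shScr (-0.45 to 0.01). None passed the test (adjusted p of 0.902, 0.956 and 0.352), nor did KD6 against KD4 (-0.21, adjusted p = 0.346). The methods and labels used here do not state the p53 genotype of 6DT1, and mRNA levels do not give it.

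**Figure D1:**
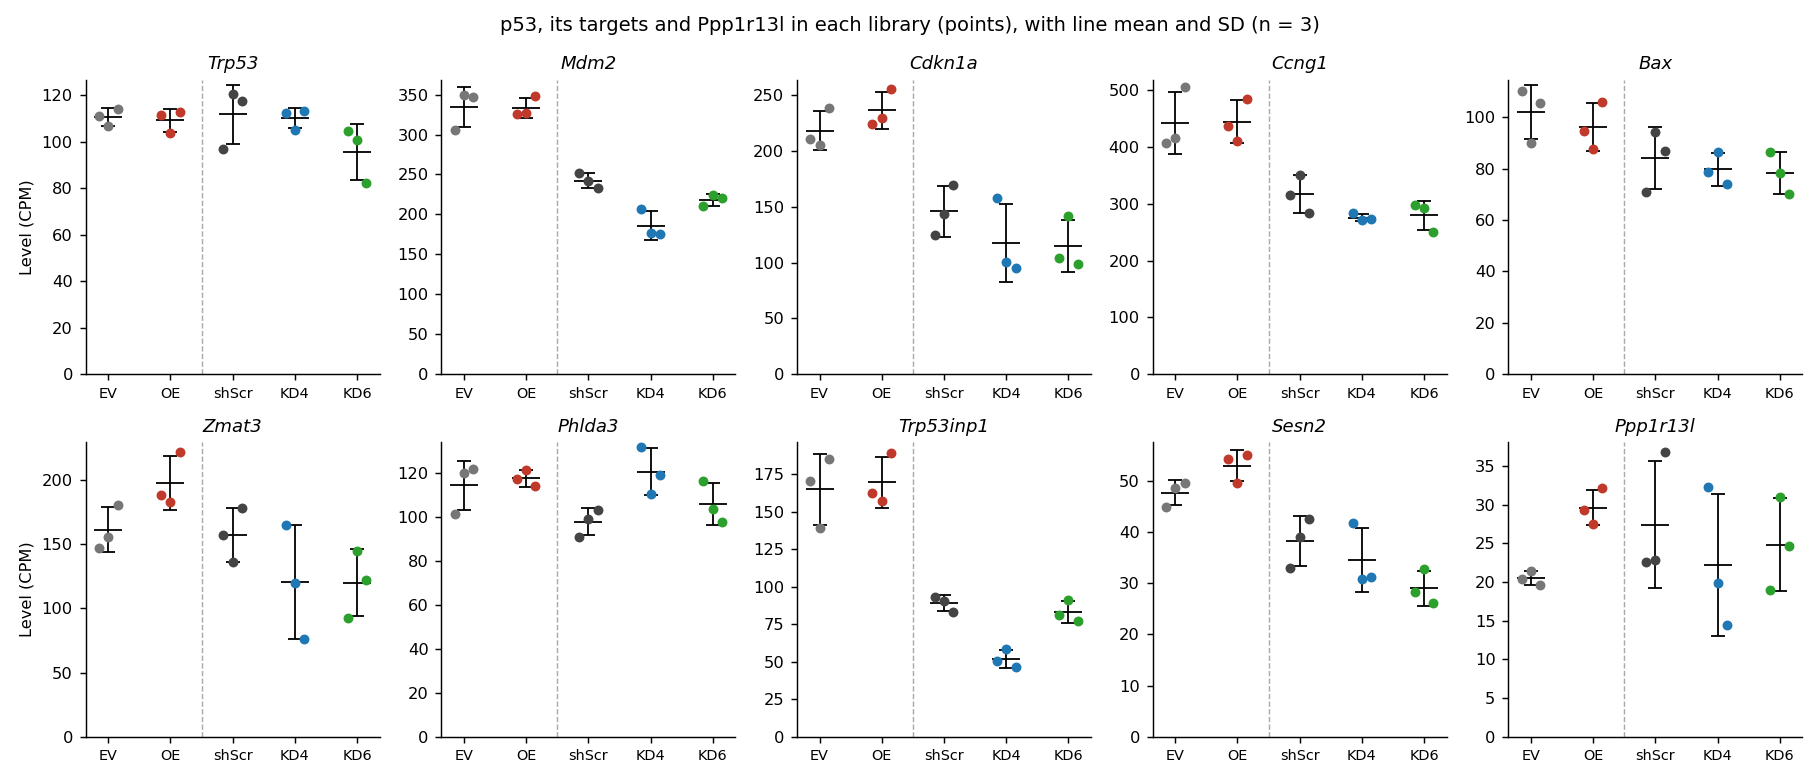
Level in CPM (vertical axis, from 0) of each of the 10 genes in each library (points, 3 per line), with the mean and SD of the line (bars). EV and OE come from one gene table and shScr, KD4 and KD6 from the other, separated by the dashed line. Mdm2 lies between 306 and 350.0 CPM in EV and OE and between 176 and 252 CPM in the hairpin lines, while Trp53 has a mean between 95.7 and 112 CPM in all 5 lines.

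Mdm2, the ubiquitin ligase, was lower in KD4 than in shScr. The shScr libraries had 252, 242 and 233 CPM, the KD4 libraries 207, 176 and 176 CPM and the KD6 libraries 210.2, 224 and 221 CPM. Every library of either knockdown line lay below every shScr library, as all KD libraries lay outside the shScr range for 10.8% of genes and for no other member. The difference was -0.38 ± 0.08 (SE) for KD4 against shScr (0.767-fold, adjusted p = 0.0104), and -0.15 ± 0.08 for KD6 against shScr (adjusted p = 0.383). Without KD4 replicate 2 the adjusted p for KD4 was 0.0520. Mdm2 was higher in KD6 than in KD4 by 0.23 ± 0.08, which did not pass (adjusted p = 0.119), although it did without KD4 replicate 1 (adjusted p = 0.0323). In the other table Mdm2 was at 306, 350.0 and 347 CPM in EV and 326, 327 and 348 CPM in OE. The OE libraries lay within the range of EV, with a difference of -0.002 (95% confidence interval -0.14 to 0.14, adjusted p = 0.991).

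Ppp1r13l, the iASPP gene, had tight replicates in EV and OE and wide ones in the hairpin lines. Its level was 20.4, 21.4 and 19.6 CPM in EV and 29.3, 27.5 and 32.1 CPM in OE. All OE libraries lay above all EV libraries, and the difference of 0.51 ± 0.07 (1.42-fold, 95% confidence interval 0.34 to 0.67) did not pass after adjustment over all genes (adjusted p = 0.135). It ranked as the 9th smallest p of the comparison. The shScr libraries had 22.6, 22.8 and 36.8 CPM, KD4 32.3, 19.8 and 14.4 CPM and KD6 18.9, 30.9 and 24.6 CPM. These ranges overlapped throughout, with differences of -0.33 ± 0.28 for KD4 and -0.13 ± 0.28 for KD6 (adjusted p of 0.508 and 0.903). The coefficient of variation was 4.42% in EV and 7.83% in OE but 29.8% in shScr, 41.4% in KD4 and 24.1% in KD6. The other ASPP family genes, Ppp1r13b and Trp53bp2, whose products assist p53 at pro-apoptotic genes, passed in none of the 5 gene-table comparisons, with differences between -0.002 and 0.30.

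Cdkn1a encodes p21, the inhibitor of cyclin-dependent kinases through which p53 arrests the cell cycle. It was at 211, 206 and 238 CPM in EV, 224, 229.7 and 255 CPM in OE, 124, 144 and 169.6 CPM in shScr, 158, 100.4 and 94.7 CPM in KD4 and 104, 142 and 98.9 CPM in KD6. Ranges overlapped within both experiments. The differences were 0.11 ± 0.07 for OE against EV, -0.34 ± 0.20 for KD4 against shScr and -0.35 ± 0.20 for KD6 against shScr, with adjusted p of 0.532, 0.330 and 0.450. Ccng1, cyclin G1, a p53 target whose product takes part in the Mdm2 feedback, was at 407 to 506 CPM in EV and 411 to 485 CPM in OE, and at 283 to 351 CPM in shScr, 271 to 284 CPM in KD4 and 251 to 297 CPM in KD6. No comparison within an experiment passed for Ccng1, the lowest adjusted p being 0.216 for KD4 against shScr.

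Trp53inp1 encodes a stress-induced protein that promotes p53 phosphorylation and cell death. Its 3 KD4 libraries had 50.2, 58.4 and 46.6 CPM, against 93.3, 90.6 and 83.3 CPM in shScr and 81.0, 91.3 and 77.5 CPM in KD6. The KD4 libraries lay apart from all others, and KD6 overlapped shScr. Trp53inp1 fell by 0.78 ± 0.09 in KD4 (0.584-fold, adjusted p = 0.000791) and differed from shScr by -0.10 ± 0.09 in KD6 (adjusted p = 0.705). The difference between the hairpin lines, 0.68 ± 0.09 higher in KD6, passed the test itself (adjusted p = 0.00270). The direction and the call of both differences held in every alternative run. In EV and OE the gene was at 139 to 185 CPM and 157 to 189 CPM, with a difference of 0.05 ± 0.11 (adjusted p = 0.886).

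In the gene tables, Bax, Zmat3, Phlda3 and Sesn2 passed in no comparison within an experiment. Bax, which permeabilizes the outer mitochondrial membrane in apoptosis, was at 90.2 to 110.4 CPM in EV, 87.8 to 106 CPM in OE and 70.2 to 94.4 CPM across the hairpin lines. Zmat3 encodes an RNA-binding protein and was at 147, 156 and 181 CPM in EV and 188, 183 and 222 CPM in OE. All OE libraries lay above EV for Zmat3, by 0.29 ± 0.09 (adjusted p = 0.299). In shScr, KD4 and KD6 its range was 136 to 178, 76.4 to 165 and 92.8 to 145 CPM. Phlda3, a repressor of Akt signalling, was at 90.9 to 103 CPM in shScr and, without overlap, at 110.5 to 132 CPM in KD4, a difference of 0.30 ± 0.09 (adjusted p = 0.0604, and 0.0473 without KD6 replicate 1). In the transcript sums of all 15 libraries the same difference of 0.30 ± 0.09 passed (adjusted p = 0.0393, 11.9% of genes). It was the member with a higher mean in both knockdown lines than in shScr. Sesn2 encodes a stress-induced restrainer of mTORC1. It was at 33.0, 39.0 and 42.6 CPM in shScr, 41.7, 30.8 and 31.2 CPM in KD4 and 28.2, 32.7 and 26.1 CPM in KD6, where it lay below shScr in every library by 0.38 ± 0.13 (adjusted p = 0.192).

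**Figure D2:**
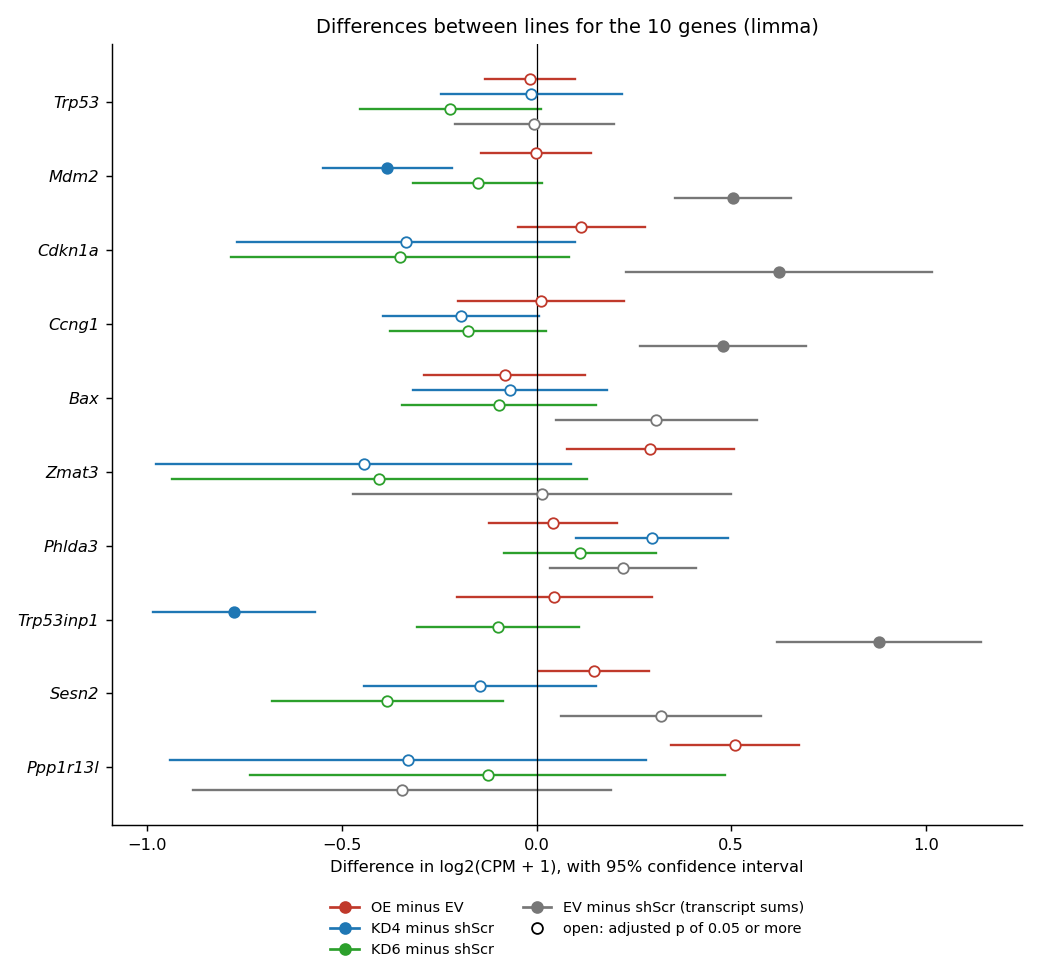
Difference in log2(CPM + 1) (horizontal axis) with its 95% confidence interval for the 10 genes in OE against EV, KD4 against shScr, KD6 against shScr and EV against shScr, the last from transcript sums. Filled points have an adjusted p under 0.05. They are Mdm2 and Trp53inp1 in KD4, and Mdm2, Cdkn1a, Ccng1 and Trp53inp1 in EV against shScr.

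The calls of the members within the experiments were counted together, beside the shares of all genes. In OE against EV 0 of 10 passed, where 0.00741% of all genes (Smarcd1 alone) passed. The 3 with an unadjusted p under 0.05, Zmat3, Sesn2 and Ppp1r13l, were all higher in OE, beside 7.68% of all genes higher at that level. The libraries of OE and EV did not overlap for 2 of 10 members and for 20% of all genes. In KD4 against shScr 2 of 10 fell and 0 rose, where 3.87% of genes fell, 5.71% rose and 9.58% passed in either direction, and the libraries did not overlap for 3 of 10 members (29.5% of genes). In KD6 against shScr 0 of 10 passed (2.91% of genes), with 1 unadjusted p under 0.05 (15.3%) and no overlap for 2 of 10 (22.2%). In KD6 against KD4 1 of 10 passed (4.91%), and Trp53, Mdm2 and Trp53inp1 did not overlap (21.6%). With both hairpin lines as 1 group of 6, KD against shScr, 0 of 10 passed (2.66%) and 4 had an unadjusted p under 0.05 (17.3%), namely Mdm2, Ccng1, Phlda3 and Trp53inp1. In that comparison 9 of 10 had a lower mean in KD, with a median difference of -0.25 against -0.0004 over all genes, of which 49.8% were higher in KD. KD4 and KD6 share the shScr libraries, so their values are not independent. Taking the mean of both hairpins in the fit of 3 groups, Mdm2 and Trp53inp1 passed (-0.27 and -0.44, adjusted p of 0.0367 and 0.0121). In that fit 847 of 13669 genes passed, against 364 with both lines as 1 group of 6. The Trp53inp1 mean joined -0.78 in KD4 and -0.10 in KD6, which differed from each other (adjusted p = 0.00270).

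The effect of overexpression was compared with that of knockdown in sums over transcripts, which place all 15 libraries in 1 table of 13142 genes. The KD effect was the mean of KD4 and KD6 minus shScr. It therefore includes KD6, where Smarcd1 did not pass against shScr in these sums (-0.20 ± 0.10, adjusted p = 0.315). In these sums Smarcd1 itself was at 36.4 to 38.3 CPM in OE and 27.0 to 32.4 CPM in EV, a difference of 0.34 ± 0.10 (adjusted p = 0.769) where the gene table gave 1.12 ± 0.07 (adjusted p = 0.00355), so the overexpression shows less in this table. The OE effect minus the KD effect was positive for 8 of 10 members (48.4% of genes), with a median of 0.32 against -0.01 over all genes. None passed (1.9% of genes did). The 5 with an unadjusted p under 0.05 were Mdm2, Zmat3, Trp53inp1, Sesn2 and Ppp1r13l, all positive, as were 8.79% of all genes at that level. Trp53inp1 had the smallest adjusted p (0.53 ± 0.16, adjusted p = 0.111). Its KD effect averages lines that differed, with KD6 above KD4 by 0.71 ± 0.12 (adjusted p = 0.00296, 6.47% of genes).

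The transcripts of the members were tested separately. Of the 29 transcripts 1 passed in KD4 against shScr, where 3.62% of all transcripts passed, and 0 passed in KD6 against shScr (0.979%) and in OE against EV, where no transcript of any gene did but 6.61% had an unadjusted p under 0.05. It was ENSMUST00000029865 of Trp53inp1, at 26.1, 24.6 and 27.8 CPM in KD4, 48.0, 56.5 and 35.7 CPM in shScr and 44.7, 46.7 and 41.5 CPM in KD6. The KD4 libraries lay below all others (-0.79 ± 0.17 against shScr, adjusted p = 0.0239), and the call was lost without KD4 replicate 1 or 2 or shScr replicate 1 or 2 (adjusted p between 0.0573 and 0.0883). It was higher in KD6 than in KD4 by 0.74 ± 0.17 (adjusted p = 0.0499, with 1.68% of transcripts passing), a call that ended when any KD4 or KD6 library, EV replicate 1 or 3, OE replicate 2 or 3 or shScr replicate 1 was left out (adjusted p between 0.0512 and 0.170). The same transcript was 52.4% ± 12.97 (SD, n = 3) of the summed Trp53inp1 level in shScr and 52.3% ± 10.2 in KD4, a difference smaller than the spread of either line. Its share was 53.05% ± 2.44 in KD6, 51.1% ± 5.55 in EV and 40.5% ± 4.99 in OE. Shares were not tested for any member, and these values do not speak for the transcripts of other members. The other main transcript, ENSMUST00000132010, differed in KD4 by -0.73 ± 0.21 (adjusted p = 0.0812). For Mdm2 the smallest p in KD4 was that of ENSMUST00000131627 (-0.72 ± 0.18, adjusted p = 0.0501), which missed the threshold. Without EV replicate 1 or 2, OE replicate 3 or KD4 replicate 1, 2 of the 29 transcripts passed in KD4.

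**Figure D3:**
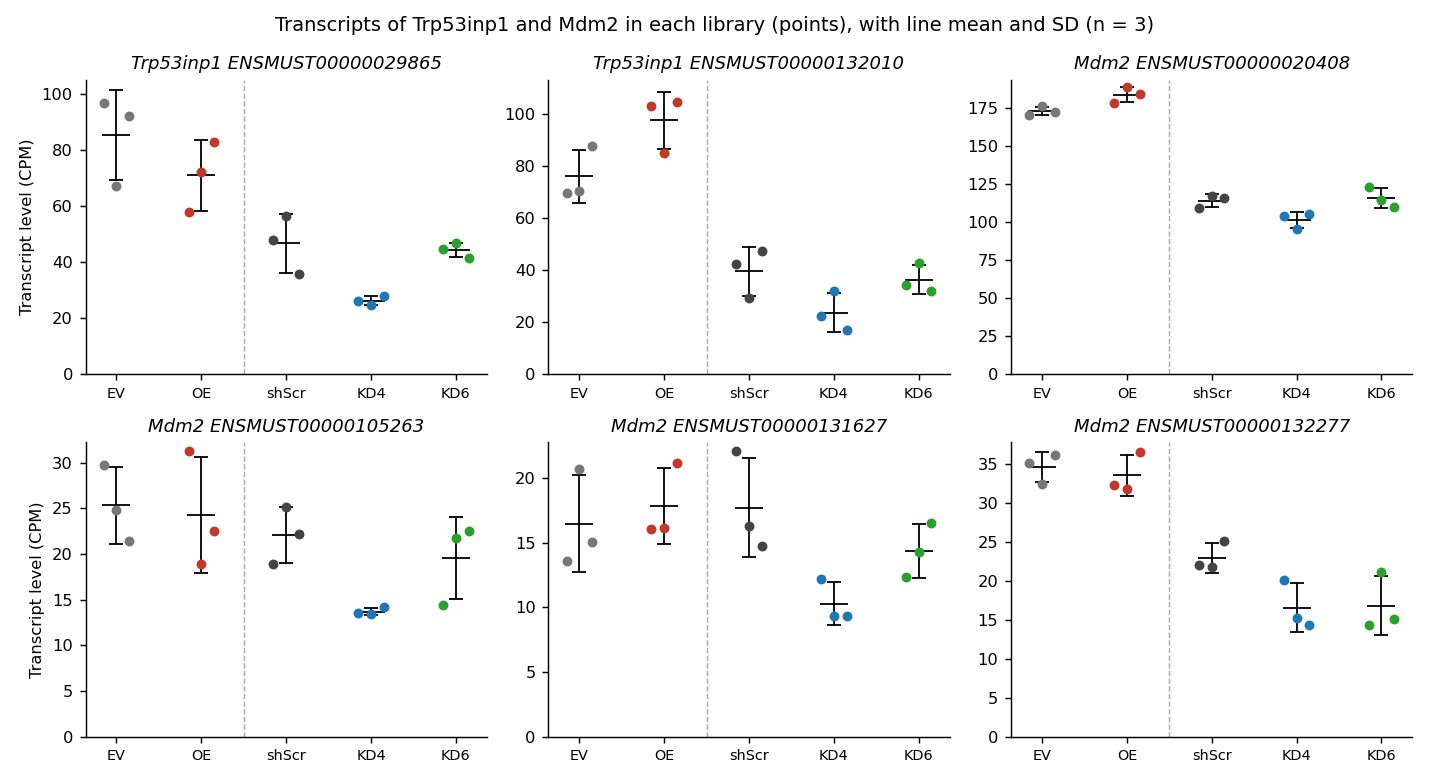
Level in CPM (vertical axis, from 0) of 2 transcripts of Trp53inp1 and 4 of Mdm2 in each library (points), with line mean and SD (bars, n = 3). Both Trp53inp1 transcripts have their lowest mean in KD4 (26.1 and 23.7 CPM). The most abundant Mdm2 transcript, ENSMUST00000020408, has a mean of 173 CPM in EV and 184 CPM in OE and of 101 to 116 CPM in the hairpin lines.

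The larger contrast lay between the vector lines and the hairpin lines. In the transcript sums, all 6 EV and OE libraries lay above all 9 libraries of shScr, KD4 and KD6 for 5 of 10 members (Mdm2, Cdkn1a, Ccng1, Trp53inp1 and Sesn2), a pattern found for 2.53% of all genes. Mdm2 summed to 300 to 346 CPM in the vector lines and 173 to 237 CPM in the hairpin lines, Cdkn1a to 199 to 251 against 92.6 to 164 CPM, and Trp53inp1 to 139.5 to 203 against 44.7 to 92.2 CPM. For Trp53, Bax, Zmat3, Phlda3 and Ppp1r13l the ranges overlapped. Between the control lines alone, EV against shScr, 4 of 10 members were called, all higher in EV, where 15.8% of genes were called and 9.4% were higher. They were Trp53inp1 (0.88 ± 0.12, 1.84-fold, adjusted p = 0.000542), Mdm2 (0.50 ± 0.07, adjusted p = 0.000511), Ccng1 (0.48 ± 0.10, adjusted p = 0.00709) and Cdkn1a (0.62 ± 0.18, adjusted p = 0.0345). Cdkn1a lost its call when EV replicate 1, 2 or 3 or shScr replicate 1 or 2 was left out (adjusted p between 0.0514 and 0.136). Phlda3 passed without EV replicate 1 (adjusted p = 0.0486) and Sesn2 without KD4 replicate 1, which enters through the shared spread (adjusted p = 0.0364). Trp53 itself differed by -0.01 ± 0.10 (adjusted p = 0.973).

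Vector, hairpin and selection drug differ together between EV and shScr, so their parts cannot be told apart. Other signals moved with the same contrast. Smarcd1 itself was higher in EV than in shScr by 0.90 ± 0.10 (adjusted p = 7.48e-05), beside a fall of 0.84 ± 0.10 in KD4 against shScr in the same transcript sums, so the control lines differed in the manipulated gene. From the separate gene tables, the 13 mitochondrially encoded mRNAs summed to 39844 to 46596 CPM in EV and 41697 to 45138 CPM in OE. Across the hairpin lines they summed to 27589 to 36015 CPM. In the transcript sums 7 of 13 were called higher in EV than in shScr (9.4% of genes). Cd68, the only one of 7 immune markers with a row, was also higher in EV (0.81 ± 0.17, adjusted p = 0.00662), and Ptprc had no row. Their part in the differences of the members was not tested.

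The order of the lines was read from the same transcript sums, with each line tested against its neighbour. For Mdm2 the order from low to high was KD4, KD6, shScr, OE and EV (means of 183, 209, 231, 324 and 328 CPM), and of these steps the one from shScr to OE passed (adjusted p = 0.000711, 8.14% of genes). Trp53inp1 had steps that passed from KD4 to KD6 (50.9 to 83.6 CPM, adjusted p = 0.00296, 6.47% of genes) and from shScr to EV (89.5 to 167 CPM). For Cdkn1a and Ccng1 the step from shScr to EV was the one that passed. No step between neighbouring lines passed for Trp53, Bax, Zmat3, Phlda3, Sesn2 or Ppp1r13l. Sesn2 ran from 29.0 CPM in KD6 to 52.9 CPM in OE, and those ends did differ (0.85 ± 0.12, adjusted p = 0.00133, 3.63% of genes). So did the ends of Phlda3, shScr and KD4 (adjusted p = 0.0393, 11.9% of genes). The ends were picked as the lowest and highest mean, and the p-values are not adjusted for that choice.

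Within the hairpin lines some members varied together from library to library. The highest library of its line was shScr replicate 3, KD4 replicate 1 and KD6 replicate 2 for each of Cdkn1a, Zmat3, Sesn2 and Ppp1r13l. After the mean of each line was removed, Pearson's r over the 15 libraries was 0.945 for Cdkn1a and Sesn2, 0.897 for Zmat3 and Ppp1r13l, and 0.84 for Cdkn1a and Ppp1r13l. The libraries share their line and scaling, and the values are a description. The genes with the most similar profile over the 15 libraries, among 8775 genes with a mean of at least 5 CPM, were Sesn2, Eftud2 and Pfas for Cdkn1a (r of 0.966, 0.961 and 0.948), Trim28, Ehmt2 and Mtx1 for Trp53 (0.946, 0.924 and 0.905) and Wiz, Cramp1l and Fhod1 for Ppp1r13l (0.968, 0.965 and 0.962). The 99th percentile of r over these genes was 0.846 for Cdkn1a, 0.735 for Trp53 and 0.887 for Ppp1r13l, and with line means removed the 9 values of r lay between 0.758 (Pfas) and 0.986 (Wiz). The same 3 libraries deviated together over the 10632 genes used to compare libraries of the knockdown table, with r of 0.297 to 0.438 between their deviations, so the joint movement of the 4 members ran beside a wider one whose part was not tested.

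**Figure D4:**
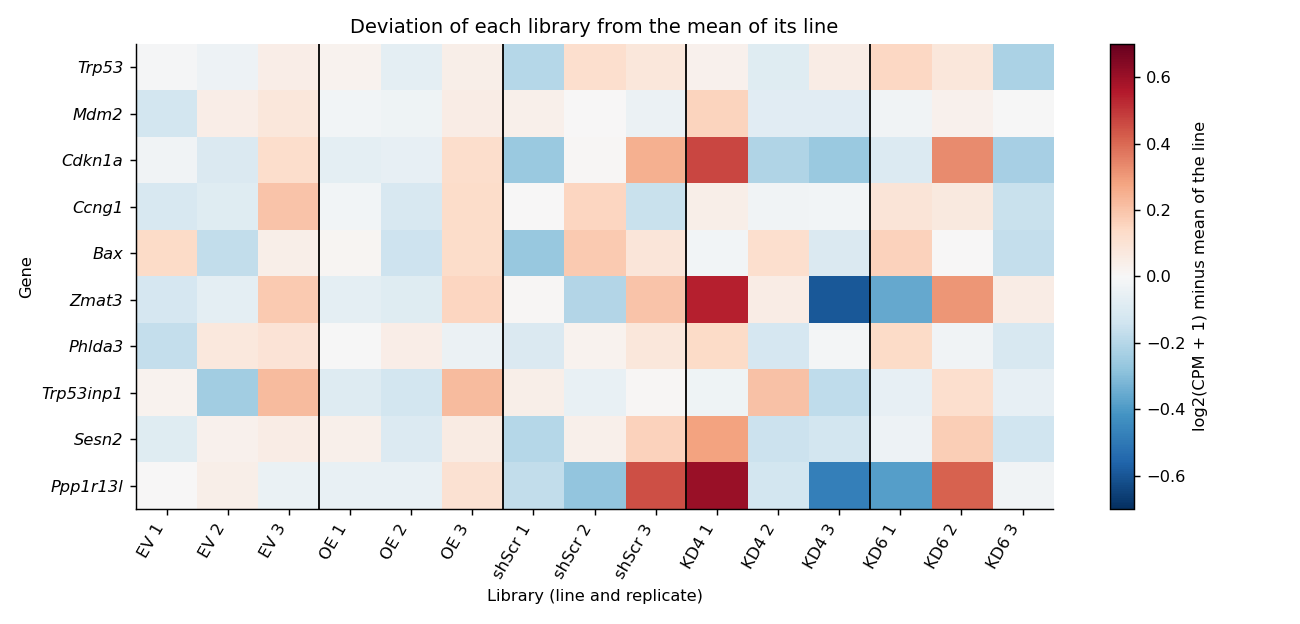
Deviation of each library from the mean of its line in log2(CPM + 1) (colour), for the 10 genes (rows) in the 15 libraries (columns), from transcript sums. In the row of Ppp1r13l, KD4 replicate 1 is at 0.605, shScr replicate 3 at 0.45 and KD6 replicate 2 at 0.412, while the EV and OE libraries stay between -0.053 and 0.104.

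The members were set beside a longer list of 40 further p53 target genes, of which 39 had a row in each gene table. In OE against EV 0 of 39 passed, with 1 higher and 4 lower at an unadjusted p under 0.05, beside 7.68% and 5.27% of all genes. In KD4 2 of 39 rose and 2 fell, near the share of all genes (5.71% and 3.87%). Perp, a desmosomal protein of p53-dependent apoptosis, rose by 1.45 ± 0.09 (adjusted p = 4.07e-05), from 32.8 to 39.4 CPM in shScr to 95.8 to 110.3 CPM. In the transcript sums its libraries lay between 82.2 and 110.3 CPM in the other 4 lines, all above shScr, and KD4 differed from EV by -0.03 ± 0.08 (adjusted p = 0.809), so for Perp shScr was the line that stood apart. Gadd45a, a growth arrest and DNA damage gene, rose by 0.69 ± 0.12 (adjusted p = 0.00552). Tigar, a regulator of glycolysis, fell by 0.51 ± 0.09 and Polh, a translesion DNA polymerase, by 0.32 ± 0.08 (adjusted p of 0.00702 and 0.0272). In KD6 Perp again rose (1.21 ± 0.09, adjusted p = 0.000286), and Plk2, Eda2r, Trp53i11 and Tigar fell, by 0.34, 0.59, 0.83 and 0.40, so that 1 of 39 rose and 4 fell (2.04% and 0.871% of genes). Tigar was at 26.9 to 30.8 CPM in shScr, 18.9 to 21.7 CPM in KD4 and 19.9 to 23.5 CPM in KD6, with no overlap. The list median was -0.01 in KD4 and -0.06 in KD6, against -0.26 and -0.16 for the 10 members and about 0 for all genes (0.0007 and 0.002).

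Targets that differed between the hairpin lines did so in both directions. In KD6 against KD4 1 of 39 was higher and 5 were lower (2.52% and 2.39% of genes), the latter including Trp53i11 (-1.32 ± 0.17), Gadd45a (-0.62 ± 0.12), Pidd1 (-0.68 ± 0.14) and the death receptor gene Fas (-0.78 ± 0.19), whereas the member Trp53inp1 was higher. In EV against shScr 12 of 37 were higher and 3 lower in EV, beside 9.4% and 6.41% of all genes. The smallest p-values there belonged to Perp (1.48 ± 0.08), Btg2 (1.27 ± 0.12), an antiproliferative gene, Ak1 (0.71 ± 0.12) and Dcxr (0.77 ± 0.15).

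Of 23 listed regulators of p53 20 had a row, and Cdkn2a, Trp63 and Trp73 had none. In KD4 3 of 20 fell (3.87% of genes), namely the DNA damage kinase gene Atm (-0.35 ± 0.07, adjusted p = 0.00987), the deubiquitinase gene Usp7 (-0.27 ± 0.06, adjusted p = 0.0248) and Trp53bp1 (-0.26 ± 0.07, adjusted p = 0.0463). None passed in KD6 or in OE, where few of all genes passed (2.91% and 0.00741%), and 5 were higher in OE at an unadjusted p under 0.05 (7.68% of genes). Trp53bp1 was higher in KD6 than in KD4 (0.34 ± 0.07, adjusted p = 0.0238). Of 19 cell cycle genes listed under the p53, p21 and DREAM axis, 2 rose in KD4 (5.71% of genes), Rbl1 (0.38 ± 0.08) and Ccna2 (0.30 ± 0.08), and 0 passed in KD6 and in OE. The list was not limited to genes that the axis represses. Ccnb2 and Rbl1 were lower in KD6 than in KD4 (-0.43 ± 0.10 and -0.31 ± 0.08, adjusted p of 0.0381 and 0.0415). In EV against shScr, where Cdkn1a was also higher, 5 of 19 were higher and 0 lower (9.4% and 6.41% of genes), and 16 of 19 had a higher mean in EV. Among 10 genes of the BCL2 family, Bak1, a partner of Bax in mitochondrial permeabilization, rose in KD4 (0.60 ± 0.07, adjusted p = 0.000490) and in KD6 (0.29 ± 0.07, adjusted p = 0.0428), and was lower in KD6 than in KD4 (-0.31 ± 0.07, adjusted p = 0.0248). Of the 10 genes 1 was called in each of these comparisons. Among all genes 5.71% rose in KD4, 2.04% rose in KD6 and 2.39% were lower in KD6 than in KD4. The Bak1 libraries had 60.3 to 67.6 CPM in shScr, 94.9 to 101 CPM in KD4 and 75.7 to 82.3 CPM in KD6. Pdgfra, the only one of 6 fibroblast markers with a row, was at 2.54 to 3.55 CPM in shScr. It rose to 7.12 to 7.75 CPM in KD4, where 5.71% of genes rose. In KD6 it was at 4.42 to 5.11 CPM, also above every shScr library, and did not pass. Of the 5 epithelial markers with a row 1 fell in KD4, the keratin gene Krt19 (-0.76 ± 0.10), and 0 rose (3.87% and 5.71% of genes). A higher mean was found for 2 of 5, among them Krt18 at 355 to 444 CPM against 294 to 336 CPM in shScr. The 5 summed to 830.4 to 1008 CPM in KD4 and 755 to 828.6 CPM in shScr. Col1a1, Dcn and Lum had no row, and the part of other cells in the KD4 and KD6 differences was not tested.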

How the data were processed

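Messenger RNA of 15 libraries was analysed from 2 gene tables and 1 transcript table. Per the deposited files, values were CPM that the authors had scaled from fractional read counts, and no row had a geometric mean below 1 CPM. The labels name STAR 2.7.8a and build mm39, while the study's methods name an older aligner and build, so no coordinate was taken from the files. A further 15 value columns of the transcript table matched no sample label and were not used. Library sums were 854736 to 923092 CPM. The depth is unknown, so its effect on precision could not be given.

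Values were transformed to log2(CPM + 1), so changes of low genes are understated, and tested with limma 3.58.1 (R 4.3.3) with an intensity trend and Benjamini-Hochberg adjustment over all genes or transcripts of a table. A value was called at an adjusted p under 0.05. EV and OE were fitted apart from shScr, KD4 and KD6. Gene tests and profiles over all 15 libraries used transcript sums. Levels of EV and OE set beside the hairpin lines came from these sums where stated, and otherwise from the separate gene tables. The fits were also run on simulated data with independent noise in each library. Deviations here were shared between libraries, so that run does not cover them. Named genes were all members, Smarcd1, the ASPP and p53 families, up to 5 called genes per list with the smallest p, the 3 genes most like Trp53, Cdkn1a and Ppp1r13l and the member transcripts with the smallest p. Symbols that the name table lacks were matched through RefSeq synonyms. The members and lists were chosen with earlier results of these data known. Alternatives were a pseudocount of 0.1, quantile and median-of-ratios scaling, a mean of at least 5 CPM, no intensity trend, a replicate block, transcript sums, a threshold of 0.1 and leaving out each library. Plots used matplotlib 3.10.9 (Python 3.11.15).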

Additional observations from a re-analysis of the deposited data

Results flagged for a closer look

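The effect of the 2 hairpins on Trp53inp1 differed, with the level 0.68 higher on the log2 scale in KD6 than in KD4 by a test of the difference itself. Its transcript ENSMUST00000029865 was also higher in KD6, by 0.74 (adjusted p = 0.0499). The call for the transcript was lost in 14 of 21 alternatives, whereas that for the gene held in 17 of 17. Smarcd1 mRNA differed between these lines as well (0.60 ± 0.08, adjusted p = 0.00292), and the part of that difference in the values of Trp53inp1 was not tested.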

How the results depend on the processing

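Over 1250 alternatives of the members' gene values, 1193 kept call and sign, 7 lost a call, 7 gained one and 43 changed sign, the last without a call in either fit (0 with one). The losses were Cdkn1a in EV against shScr (5 left-out libraries, and the replicate block at an adjusted p of 0.0694) and Mdm2 in KD4. The cause was not tested for any change below.

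Leaving out each library in turn gave 0 to 1 genes called in OE against EV, 92 to 397 in KD, 641 to 1309 in KD4, 151 to 419 in KD6, 298 to 611 in KD6 against KD4, 91 to 411 in the comparison of effects and 971 to 2401 in EV against shScr. Members called ranged from 1 to 3 in KD4 and from 1 to 2 in KD6 against KD4. Transcripts called were 519 to 1108 in KD4, 97 to 300 in KD6 and 202 to 484 in KD6 against KD4, with 0 to 2 of the members' transcripts in KD4 and 0 to 1 in KD6 against KD4. The gene counts fell by more than 1.5 times without shScr replicate 1, 2 or 3 in KD, KD4, KD6 and the comparison of effects, without EV replicate 1 or 3 or shScr replicate 1 or 3 in EV against shScr, without KD4 replicate 2 in KD, KD4 and KD6 against KD4, without KD6 replicate 1 in KD and KD6, without KD6 replicate 2 in KD6 and KD6 against KD4, and without KD6 replicate 3 in KD6 against KD4. In the comparison of effects any EV or OE library did the same, and leaving out KD4 replicate 1 raised the count to 411.

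Differences that crossed 0 when a library was left out were, in OE against EV, Mdm2 (-0.0642 to 0.0320), Ccng1 (-0.0535 to 0.111), Trp53inp1 (-0.0713 to 0.133), Phlda3 (-0.0410 to 0.0897) and Trp53 (-0.0439 to 0.0192). In KD and KD4 they were Bax (-0.200 to 0.0050 and -0.186 to 0.0187) and, in KD4, Trp53 (-0.111 to 0.0434). In KD6 it was Ppp1r13l (-0.29 to 0.10), and in KD6 against KD4 Cdkn1a (-0.18 to 0.22), Bax (-0.101 to 0.0477), Zmat3 (-0.25 to 0.30), Ppp1r13l (-0.0537 to 0.503) and Ccng1 (-0.0267 to 0.0958). In the comparison of effects it was Bax (-0.10 to 0.12), and in EV against shScr Trp53 (-0.106 to 0.0543) and Zmat3 (-0.0887 to 0.113). Quantile normalization also turned the sign of Mdm2 in OE (0.0022), Bax in the comparison of effects (0.0130) and Zmat3 in EV against shScr (-0.0057).

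Replicate numbers did not pair the libraries, since same-numbered deviations correlated between -0.378 and 0.279 and not every library correlated best with its own number. Libraries of different numbers correlated higher in the knockdown table, as shScr replicate 3, KD4 replicate 1 and KD6 replicate 2 did (0.297 to 0.438), shScr replicate 2, KD4 replicate 3 and KD6 replicate 1 (0.399 to 0.455) and shScr replicate 1 with KD6 replicate 3 (0.476). The labels do not say that numbers mark a shared passage, no crossed pairing was tried, and the counts with the block rest on the numbers as labelled. With the replicate block 114 genes were called in KD, 626 in KD4, 179 in KD6, 349 in KD6 against KD4, 43 in the comparison of effects and 990 in EV against shScr, and 375, 57 and 149 transcripts in KD4, KD6 and KD6 against KD4, 0 of them of members. Quantile normalization called 3 genes in OE and transcript sums 0. In KD transcript sums called 217 and the mean of both hairpins 847 genes, 2 of them members, and in KD6 against KD4 transcript sums called 443. A threshold of 0.1 called 657, 2001, 679 and 1091 genes in KD, KD4, KD6 and KD6 against KD4. Of the members' transcripts, KD4 called 2 with a pseudocount of 0.1 or no intensity trend and 3 with quantile normalization or a mean of at least 5 CPM, while KD6 against KD4 called 0 with median-of-ratios scaling or no intensity trend.

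With 3 libraries a line and unknown depth, small differences of these genes were not detectable, and an adjusted p above the threshold does not show equal levels.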
